A study of Xenopus laevis with 6 samples.

Results

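The genes described here encode proteases and 1 candidate protease inhibitor of Xenopus laevis. They were taken as every probe set whose platform gene symbol, without a final .L or .S, is xepsin or wfdc2 or begins with astl2. This rule found 7 probe sets among the 32539 tested, and 6 genes among the 11303 with a single platform symbol. The genes were xepsin.L, xepsin.S (2 probe sets), wfdc2.L, astl2d.1.L, astl2b.L and astl2e.2.L, where L and S mark the homeologous copies of the allotetraploid genome. xepsin.L, xepsin.S, wfdc2.L and astl2d.1.L were proposed with their log2 changes on these same arrays known. They are treated as chosen by those changes, and their values are given as a description without a p-value. Where calls of the fit are counted among them, nothing is read from those calls. The astl2b.L and astl2e.2.L probe sets entered by symbol alone.

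Gene expression was measured on GeneChip Xenopus laevis Genome 2.0 arrays in animal caps, the ectoderm of the blastula roof, which forms epidermis when grown alone. Embryos came from in vitro fertilization, and morpholino oligonucleotides (MO), which block translation or splicing of a transcript, went into the animal side of every blastomere at the 4-cell stage. The groups were Control MO at 80 ng, ERK3 MO1/2 at 40 ng of each of its pair of oligonucleotides, and TFAP2A MO1/2 at 40 ng of each of its pair, with 2 arrays per group that the labels call biological replicates. Caps were cut at stage 9 and harvested at stage 15. ERK3 belongs to the atypical branch of the MAP kinases, and TFAP2A is an AP-2 family transcription factor active in ectoderm. Each pair was injected together, with no group for a single oligonucleotide, and how many caps made up a sample is not stated in the labels.

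Serine proteases cut proteins with a catalytic serine, and xepsin is a frog serine protease of this class, named as epidermal. Astacins are zinc metalloproteases. The hatching enzymes that digest the egg envelope of frogs and fish are astacins, and the astl2 genes are astacin-like genes of Xenopus. Secreted proteases of epithelia are held in check by inhibitors, and the whey acidic protein (WAP) domain is a small disulfide-rich fold found in several such inhibitors. The wfdc2 gene encodes a secreted protein with WAP domains, known in mammals as HE4, an epithelial product.

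The array median intensity lay between 23.2 and 24.6, and the lower quartile, used here as a floor for dim probe sets, lay between 6.36 and 6.96. Of the 7 probe sets, 4 lay above the lower quartile on all 6 arrays and 3 lay under it on all 6. The floor was chosen with the values known. No probe set carried the symbol of ERK3 (mapk6). The tfap2a.L intensities were 1125.5 and 753.4 with Control MO, 1816.6 and 1425.1 with ERK3 MO1/2, and 1495.2 and 1286.8 with TFAP2A MO1/2. Those of tfap2a.S were 718.3 and 528.2, 1237.1 and 1055.8, and 717.9 and 741.8 in the same order of groups. A morpholino need not lower its target's transcript, so these levels do not test the labels. Among markers of the epidermis, which animal caps form, 26 of 35 probe sets lay above the lower quartile on all arrays. By definition 25% of the probe sets of an array lie under it. Of the mesoderm markers 7 of 10 lay above it on all arrays, and of the endoderm markers 9 of 13. The epidermal count therefore does not show which tissue the caps formed.

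Among the proteases, xepsin.L had intensities of 725.6 and 1398 with Control MO, 404.9 and 750.2 with ERK3 MO1/2, and 38.6 and 150.9 with TFAP2A MO1/2. Both TFAP2A arrays lay below all other arrays, while the ERK3 and control arrays overlapped. The mean log2 change from control was -3.72 ± 0.69 (SE of the limma fit, n = 2 per group) with TFAP2A MO1/2, 13.2-fold lower. It was the lowest change of the 32539 probe sets in that comparison. With ERK3 MO1/2 the log2 change was -0.87 ± 0.69, 1.83-fold lower. In bulk caps, fewer cells of a type and less RNA per cell cannot be told apart, here and for the genes that follow.

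The astacin gene astl2d.1.L had intensities of 267.7 and 415.9 with Control MO, 95.5 and 194.2 with ERK3 MO1/2, and 51.8 and 83.5 with TFAP2A MO1/2. The groups did not overlap, with the control arrays highest and the TFAP2A arrays lowest. The log2 change from control was -1.29 ± 0.42 with ERK3 MO1/2, 2.45-fold lower. With TFAP2A MO1/2 it was -2.34 ± 0.42, 5.07-fold lower.

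The WAP-domain gene wfdc2.L had intensities of 2002 and 2856 with Control MO, 61.0 and 167.8 with ERK3 MO1/2, and 1472 and 1717 with TFAP2A MO1/2. Both ERK3 arrays lay far below all others, and the TFAP2A arrays lay just below the control arrays without overlap. The log2 change with ERK3 MO1/2 was -4.56 ± 0.47, 23.6-fold lower, the lowest of all 32539 probe sets in that comparison. With TFAP2A MO1/2 it was -0.59 ± 0.47, 1.5-fold lower.

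**Figure D1:**
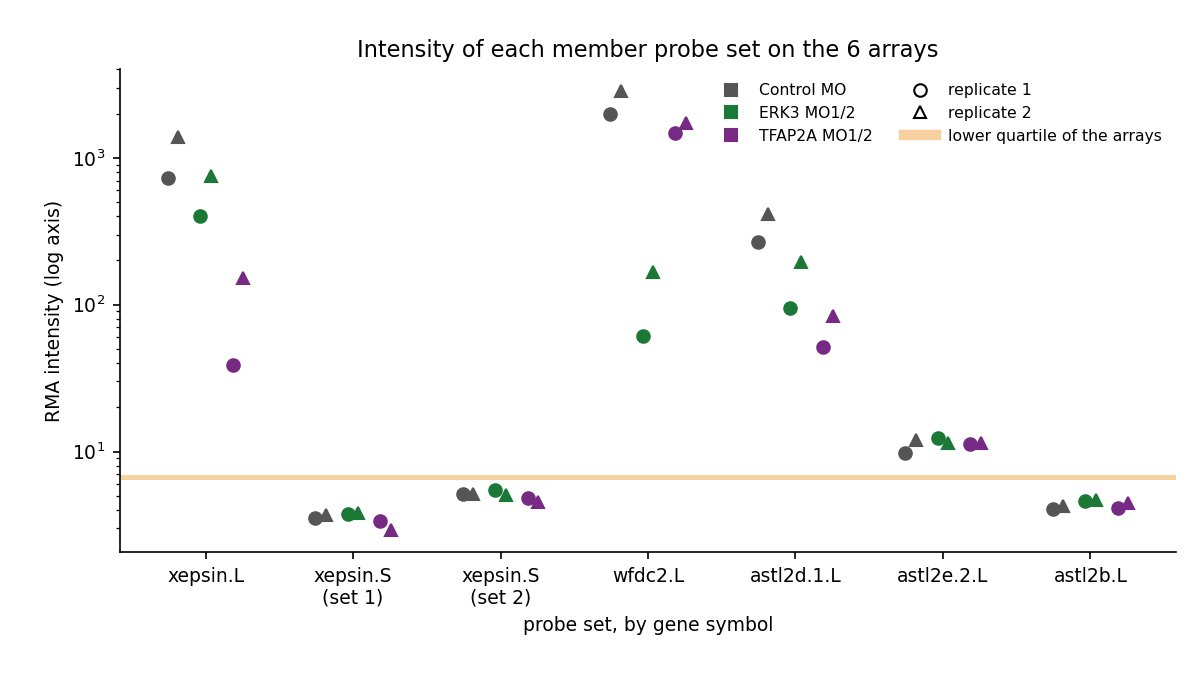
Intensity of the 7 probe sets of xepsin, wfdc2 and astl2 genes on each of the 6 arrays, on a log axis, by injected morpholino. xepsin.L was lowest on the TFAP2A MO1/2 arrays (38.6 and 150.9), wfdc2.L on the ERK3 MO1/2 arrays (61.0 and 167.8), and the 3 probe sets under the lower quartile stayed between 2.92 and 5.45.

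The other copies and relatives were dim. The astl2e.2.L probe set had intensities of 9.75 and 11.99 with Control MO, 12.4 and 11.4 with ERK3 MO1/2, and 11.2 and 11.3 with TFAP2A MO1/2. These values lay above the lower quartile and below the median of every array. Its log2 change was 0.13 ± 0.15 with ERK3 MO1/2 (limma, adjusted p = 0.619, 95% interval -0.23 to 0.49) and 0.06 ± 0.15 with TFAP2A MO1/2 (limma, adjusted p = 0.853, 95% interval -0.30 to 0.42). Neither passed, and in both comparisons the small change turned negative without Control MO replicate 1, at -0.02 and -0.09.

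For xepsin.S, 1 probe set gave intensities of 3.52 and 3.71 with Control MO, 3.78 and 3.81 with ERK3 MO1/2, and 3.34 and 2.92 with TFAP2A MO1/2. The second, whose name marks probes shared by several transcripts, gave 5.16 and 5.16, 5.45 and 5.08, and 4.83 and 4.51 in the same order of groups. The astl2b.L probe set gave 4.05 and 4.28, 4.62 and 4.65, and 4.15 and 4.49. All 3 were under the lower quartile on every array, and no fold change is given for them. An S copy of xepsin was therefore not measured above the floor, and no S copy of wfdc2 or of an astl2 gene was analysed here.

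Both knockdowns were compared with the same 2 control arrays. In the ERK3 comparison 1 of the 7 probe sets, wfdc2.L, passed an adjusted p under 0.05 as lower, where 6.09% of all probe sets tested did. In the TFAP2A comparison 2 of the 7, xepsin.L and astl2d.1.L, passed as lower, where 6% of all did. No probe set of the 7 passed as higher in either, where 4.49% of all did in the ERK3 comparison and 5.3% in the TFAP2A comparison. These comparisons were used in choosing the genes, so nothing is read from these counts. The wfdc2.L call ended without Control MO replicate 1 or 2, which left 0 of the 7. The xepsin.L and astl2d.1.L calls both ended without any 1 of the control or TFAP2A arrays, and with 16 added before log2. Among the 4 probe sets above the floor, knockdown and control arrays did not overlap, with knockdown lower, for 2 with ERK3 MO1/2 (25.5% of all probe sets tested) and for 3 with TFAP2A MO1/2 (26.5% of all). None was separated as higher, where 31.1% of all probe sets were in the ERK3 comparison and 29.8% in the TFAP2A comparison.

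The knockdowns were also set against each other. xepsin.L was 7.22-fold higher in ERK3 than in TFAP2A knockdown caps (log2 difference 2.85 ± 0.69), and astl2d.1.L was 2.07-fold higher (1.05 ± 0.42). wfdc2.L was 15.7-fold lower in ERK3 than in TFAP2A knockdown caps (-3.97 ± 0.47), the lowest difference of all probe sets tested. With 1 array left out at a time, these log2 differences ranged from 1.87 to 3.83 for xepsin.L, from 0.54 to 1.56 for astl2d.1.L and from -4.70 to -3.24 for wfdc2.L. For astl2e.2.L the difference was 0.07 ± 0.15 (limma, adjusted p = 0.852, 95% interval -0.29 to 0.43). Of the 7 probe sets 1, wfdc2.L, passed as lower in ERK3 knockdown caps, against 2.49% of all probe sets tested, and 0 passed as higher, against 2.28%. That call ended in a fit of only the 4 arrays compared and without any 1 array other than ERK3 MO1/2 replicate 2. Of the 4 above the floor, 1 lay lower without overlap (23.6% of all) and 3 higher (25.9% of all). Since these differences follow from the values used in choosing the genes, they too are a description.

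**Figure D2:**
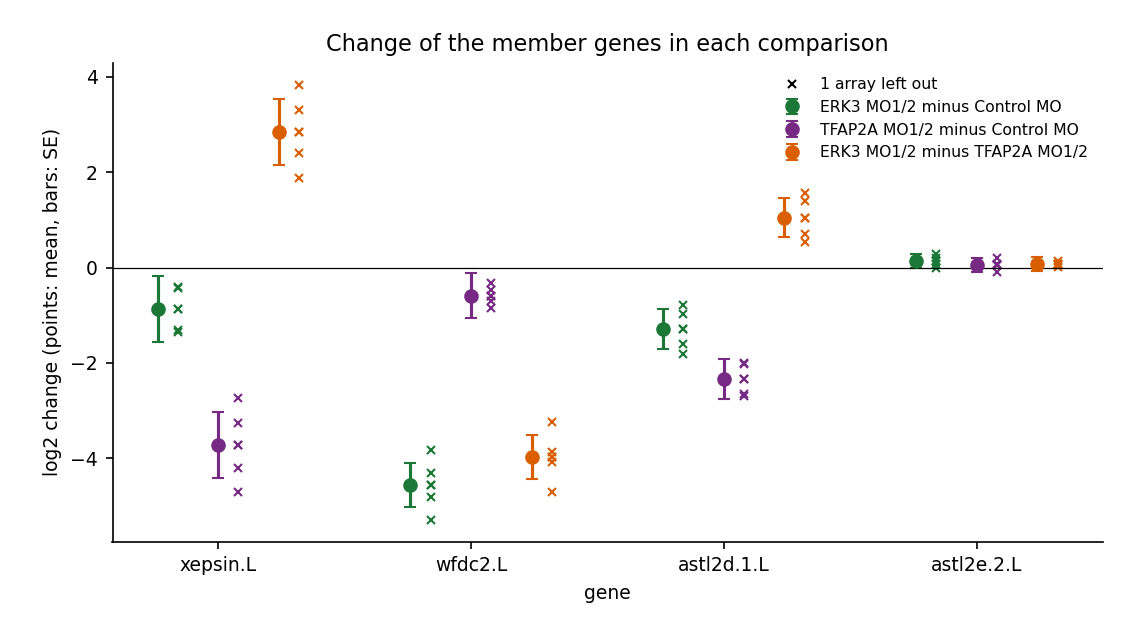
Log2 change of xepsin.L, astl2d.1.L, wfdc2.L and astl2e.2.L in the 3 comparisons, with points for the fitted change and bars for ± 1 SE of the limma fit (2 arrays per group). wfdc2.L was lowest with ERK3 MO1/2 (-4.56 ± 0.47) and xepsin.L with TFAP2A MO1/2 (-3.72 ± 0.69), while the astl2e.2.L values lay within 1 SE of 0.

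xepsin.L, wfdc2.L and astl2d.1.L, the 3 bright genes, differed between replicates by more than the median probe set in every group. The second replicate minus the first was 0.95, 0.89 and 1.97 on the log2 scale for xepsin.L in control, ERK3 and TFAP2A knockdown caps. For wfdc2.L it was 0.51, 1.46 and 0.22, and for astl2d.1.L it was 0.64, 1.02 and 0.69. The median size of this difference over all probe sets was 0.17, 0.19 and 0.17. The second replicate was higher in all 3 groups for each of the 3 bright genes, as it was for 20.1% of all probe sets. For astl2e.2.L, also above the floor, the difference was 0.30, -0.12 and 0.02. With 1 array left out at a time, the change of wfdc2.L with ERK3 MO1/2 ranged from -5.29 to -3.83 and that of xepsin.L with TFAP2A MO1/2 from -4.70 to -2.74. For astl2d.1.L the same ranges were -1.80 to -0.78 with ERK3 MO1/2 and -2.69 to -1.998 with TFAP2A MO1/2.

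Markers of some cell types and the gapdh control were lower in the same caps. The cell type lists, here and in the next paragraph, were written with results of these arrays known. Their counts and p-values are therefore a description. The hatching and cement gland list held 17 probe sets, of which 7 fell and 0 rose with ERK3 MO1/2 and 8 fell and 0 rose with TFAP2A MO1/2, with median log2 changes of -0.26 and -0.84. Their summed intensity was 6417 and 6320 with Control MO, 3024 and 3483 with ERK3 MO1/2, and 2877 and 3114 with TFAP2A MO1/2. No hatching enzyme symbol of the list matched a probe set, so it rests on ag1, agr2, crx, pax3 and pitx1. Its probe sets cover 9 genes, counting L and S copies apart, so a gene with more than 1 called probe set counts more than once. Among them ag1.S, a cement gland product, fell by 2.39 ± 0.32 with ERK3 MO1/2 (limma, adjusted p = 0.0140) and fell by 1.94 ± 0.32 with TFAP2A MO1/2 (limma, adjusted p = 0.0208). In neither comparison was its adjusted p the smallest of the list. With ERK3 MO1/2 the smallest was that of agr2.S, which fell by 1.69 ± 0.21 (limma, adjusted p = 0.0117). Of all probe sets tested, 6.09% fell and 4.49% rose with ERK3 MO1/2, and 6% fell and 5.3% rose with TFAP2A MO1/2. Of 35 epidermal probe sets, 6 fell with ERK3 MO1/2, 10 fell with TFAP2A MO1/2, and none rose in either. Their summed intensity was 45016 and 48226 with Control MO, 36722 and 39354 with ERK3 MO1/2, and 34010 and 34820 with TFAP2A MO1/2. The keratin krt12.5.S fell by 2.16 ± 0.14 with TFAP2A MO1/2 (limma, adjusted p = 0.00594). The 3′ gapdh quality control had intensities of 296.2 and 335.4 with Control MO, 42.1 and 84.2 with ERK3 MO1/2, and 180.5 and 242.5 with TFAP2A MO1/2. Its 5′ counterpart had 138.2 and 172.1, 16.6 and 37.6, and 95.4 and 142.9 in the same order, so the log2 ratio of 3′ to 5′ signal stayed between 0.76 and 1.34 on all arrays. The 3′ actin control lay between 6578 and 8025 on all arrays. Its 5′ counterpart lay between 3.06 and 4.31, under the lower quartile on all arrays. The actin log2 ratios of 10.7 to 11.3 therefore rest on a probe set under the floor. The log2 ratio of the ef1a control lay between -1.25 and -0.94. It rests on dim probe sets, with 3′ intensities of 8.20 to 11.9 and 5′ intensities of 17.6 to 22.9, below the median of every array. The part of these markers, of the gapdh transcript and of its 3′ to 5′ ratio in the changes of xepsin.L, astl2d.1.L and wfdc2.L was not tested.

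The remaining tissue lists held 11 goblet and small secretory cell, 12 multiciliated cell, 15 ionocyte, 18 neural, 10 mesoderm and 13 endoderm probe sets. With ERK3 MO1/2, 0, 1, 3, 1, 4 and 3 of them fell, in this order, and none rose. In the same order 4, 2, 7, 2, 8 and 4 had an unadjusted p under 0.05 in limma, against 9057 of all 32539. Their median log2 changes were -0.54, -0.05, -0.39, -0.11, -0.93 and -0.24, beside 0.04 over all probe sets. Of all probe sets tested, 6.09% fell and 4.49% rose in that comparison. With TFAP2A MO1/2, 1 goblet and small secretory cell, 2 multiciliated cell, 4 ionocyte, 0 neural and 1 mesoderm probe sets fell. In the endoderm list 2 rose and 0 fell. The 2 were the L and S copies of 1 gene, both below the median of every array, and the S copy was under the lower quartile on both control arrays. The summed intensity of the mesoderm list was 442 and 398 with Control MO, 159 and 233 with ERK3 MO1/2, and 385 and 340 with TFAP2A MO1/2. With TFAP2A MO1/2, 6, 7, 5, 6, 4 and 5 probe sets, in the list order above, had an unadjusted p under 0.05 in limma. Of all 32539 probe sets, 8927 did. The median log2 changes of the lists were -0.48, -0.79, -0.27, -0.18, -0.42 and 0.17, beside 0.02 over all probe sets. Of all probe sets tested, 6% fell and 5.3% rose with TFAP2A MO1/2. No result about a tissue is read from a count near these shares.

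Other protease and inhibitor families were counted in the same fit, from lists written with results of these arrays known. Of all probe sets tested, 6.09% fell and 4.49% rose with ERK3 MO1/2, and 6% fell and 5.3% rose with TFAP2A MO1/2. No result about a family is read from a count near these shares. Of 40 probe sets of other trypsin-like serine proteases, 2 rose and 1 fell with ERK3 MO1/2 (median log2 change 0.14), and 0 passed with TFAP2A MO1/2 (median 0.09), where 2 had an unadjusted p under 0.05. The median over all probe sets was 0.04 and 0.02 in these comparisons. The elastase gene cela1.1.L rose with ERK3 MO1/2 from 6.19 and 5.09, under the lower quartile, to 23.8 and 13.9 (limma, adjusted p = 0.0259). cela3b.L, a second elastase gene, rose by 1.43 ± 0.31 (limma, adjusted p = 0.0414) from 8.76 and 6.23, the second under the lower quartile. ovch1.L fell by 0.64 ± 0.14 (limma, adjusted p = 0.0413). The membrane-anchored channel-activating protease gene prss8.S had intensities of 786 and 951 with Control MO, 749 and 788 with ERK3 MO1/2, and 666 and 587 with TFAP2A MO1/2, and passed in neither comparison.

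Of 10 probe sets of astacins other than astl2, 0 passed with either knockdown, with 1 and 3 at an unadjusted p under 0.05 in limma for ERK3 MO1/2 and TFAP2A MO1/2. Their median log2 changes were 0.09 and 0.05. The astacin-like gene astl3a.1.L lay between 4.44 and 5.65 on all arrays, under the lower quartile.

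Of 41 protease inhibitor probe sets, 4 rose and 1 fell with ERK3 MO1/2 (median log2 change 0.07). All 4 that rose belonged to serpinh1, which by its family is a serpin but encodes a collagen chaperone. The serpinh1.S probe set has a name that marks probes shared by several transcripts, so it may not measure the S copy alone. Its intensities were 31.8 and 23.9 with Control MO, 83.5 and 86.5 with ERK3 MO1/2, and 32.0 and 26.2 with TFAP2A MO1/2. It rose by 1.62 ± 0.19 with ERK3 MO1/2 (limma, adjusted p = 0.0103), with both ERK3 arrays above all others. The inhibitor gene that fell, a2ml1.L of the alpha-2-macroglobulin family, went from 6.69 and 7.62 to 4.19 and 4.54, under the lower quartile (limma, adjusted p = 0.0276). With TFAP2A MO1/2, 2 inhibitor probe sets fell and 0 rose (median 0.06), and they were a2ml1.L (limma, adjusted p = 0.0474) and timp3.L (limma, adjusted p = 0.0401), a metalloprotease inhibitor gene whose TFAP2A arrays lay under the lower quartile. The other timp3.L probe set did not pass (limma, adjusted p = 0.442).

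Of 40 matrix metalloprotease and ADAM protease probe sets, 1 rose and 1 fell with ERK3 MO1/2, and 2 rose and 3 fell with TFAP2A MO1/2. The matrix metalloprotease gene mmp3.L fell in both, with log2 changes of -1.53 ± 0.15 (limma, adjusted p = 0.00893) and -1.23 ± 0.15 (limma, adjusted p = 0.0112). Its intensities were 61.1 and 51.1 with Control MO, 19.0 and 19.8 with ERK3 MO1/2, and 25.8 and 22.1 with TFAP2A MO1/2. With TFAP2A MO1/2 adam33.L, a membrane-bound metalloprotease gene, fell by 1.90 ± 0.27 (limma, adjusted p = 0.0143) in 1 probe set and fell by 1.45 ± 0.26 (limma, adjusted p = 0.0254) in the other. mmp28.S rose by 1.26 ± 0.17 (limma, adjusted p = 0.0127), from 6.03 and 7.15, the first under the lower quartile, to 15.6 and 15.8. The other called rise, in both knockdowns, was of an mmp28.L probe set (limma, adjusted p = 0.0374 and 0.0382), which lay under the lower quartile on all arrays. Of 21 cathepsin probe sets, which encode lysosomal proteases, 0 passed with ERK3 MO1/2, where 1 had an unadjusted p under 0.05 in limma. With TFAP2A MO1/2 1 of them, ctsa.L, fell by 1.02 ± 0.14 (limma, adjusted p = 0.0132).

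**Figure D3:**
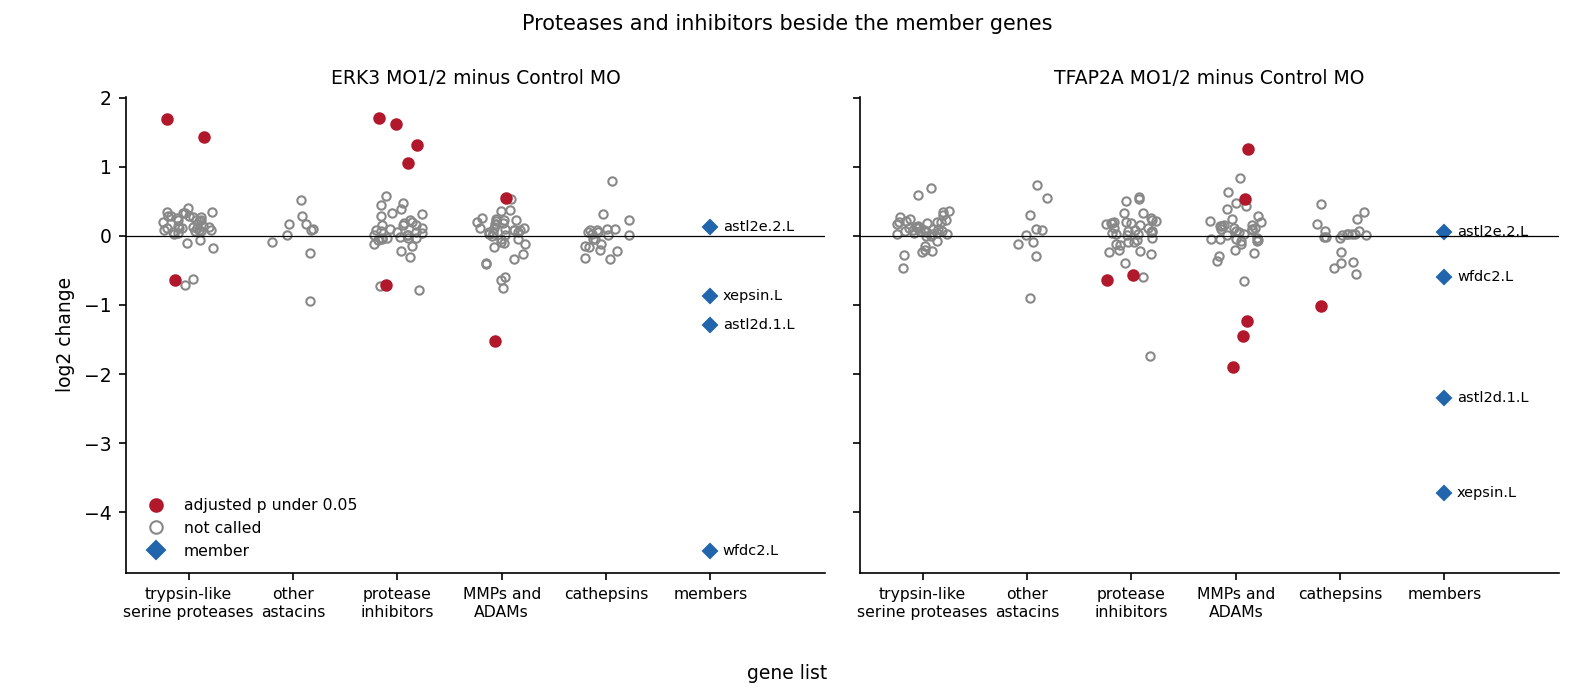
Log2 change against control of each probe set in 5 protease and inhibitor lists, with filled circles for an adjusted p under 0.05, open circles for the others, and diamonds for the 4 probe sets above the floor among xepsin, wfdc2 and astl2 genes. Most listed probe sets lay near 0, with medians of 0.14 and 0.09 for the trypsin-like serine proteases, while wfdc2.L lay at -4.56 with ERK3 MO1/2 and xepsin.L at -3.72 with TFAP2A MO1/2.

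Genes whose pattern over the 6 arrays lay nearest to each bright gene were found among 10971 genes by the root mean square distance of mean-centred log2 values. They were chosen for their pattern, so they are described without a test. Nearest to xepsin.L were atp12a.L, a proton pump subunit gene (distance 0.42, Pearson's r = 0.98 over 6 arrays), bola2.L (0.53, r = 0.99) and selenok.S (0.65, r = 0.93). The atp12a.L intensities were 295.0 and 380.7 with Control MO, 103.2 and 217.8 with ERK3 MO1/2, and 23.1 and 56.0 with TFAP2A MO1/2. It therefore had the same order of groups as xepsin.L, and the second array of each group was likewise the higher.

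Nearest to wfdc2.L were fam3a.S (distance 0.95, r = 0.97), gapdh.L (0.99, r = 0.99) and eps8l3.S (1.09, r = 0.94). The glycolytic gene gapdh.L had intensities of 195.1 and 260.0 with Control MO, 29.0 and 62.0 with ERK3 MO1/2, and 138.1 and 198.2 with TFAP2A MO1/2. The distances for wfdc2.L were larger than those for xepsin.L and astl2d.1.L. Such a distance depends on the size of a change as well as its shape, and no probe set fell as far as wfdc2.L with ERK3 MO1/2. The distances therefore do not rank how unusual the 3 patterns were. Nearest to astl2d.1.L were tcaf1.L (0.17, r = 0.99), xfrp (0.18, r = 0.99) and gdpd1.L (0.23, r = 0.98). The tcaf1.L intensities were 645 and 1300 with Control MO, 327 and 602 with ERK3 MO1/2, and 146 and 282 with TFAP2A MO1/2. The numbers of candidate genes with r above 0.95 were 89 for xepsin.L, 152 for wfdc2.L and 140 for astl2d.1.L. All points of a correlation share the same 6 arrays and replicate shifts.

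**Figure D4:**
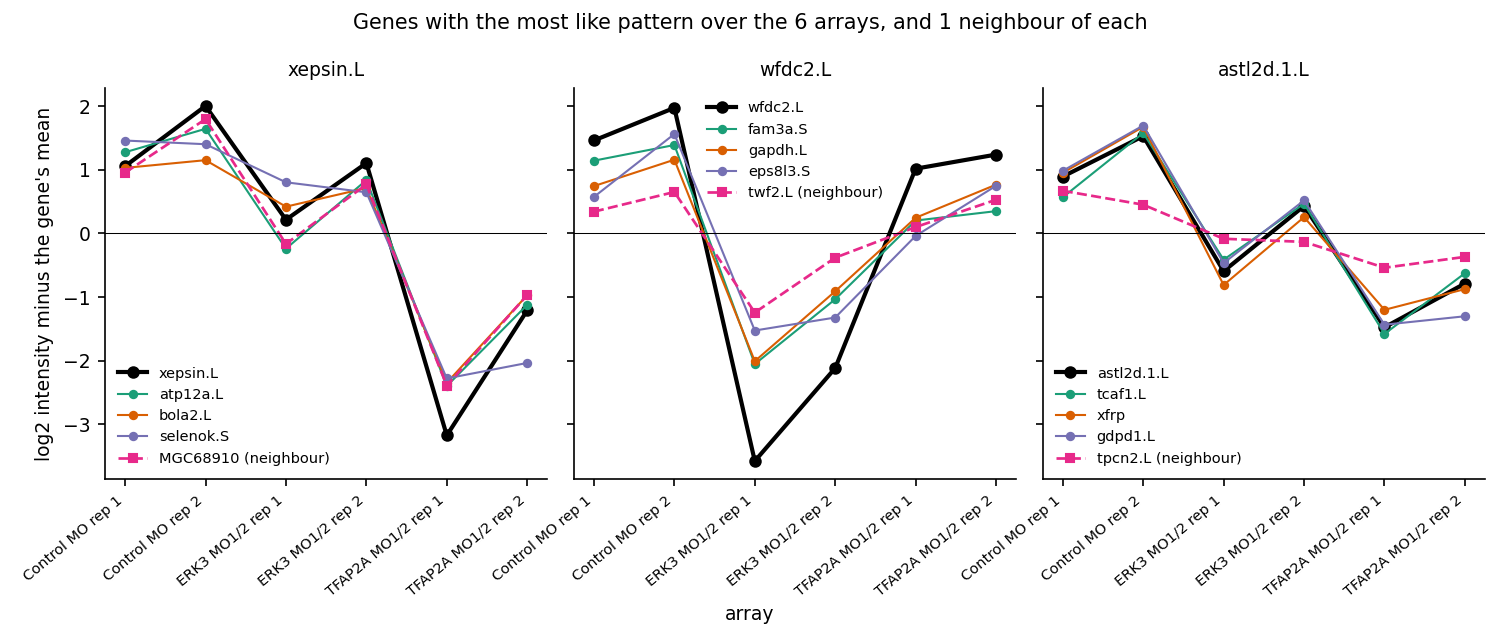
Log2 intensity minus each gene's own mean on the 6 arrays for xepsin.L, wfdc2.L and astl2d.1.L, each with its 3 nearest genes. The dashed line in each panel is a measured neighbour in gene order, not a gene found by its pattern (MGC68910, twf2.L and tpcn2.L). tcaf1.L followed astl2d.1.L at a distance of 0.17, while fam3a.S, the nearest to wfdc2.L, was at a distance of 0.95, with ERK3 MO1/2 values less far below its mean.

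The measured neighbours of each bright gene in RefSeq gene order (assembly Xenopus_laevis_v10.1, used for order only) were also read, 2 on each side, a choice made with the values of the bright genes known. Next to xepsin.L, with 1 gene between, lay the locus MGC68910, with intensities of 644.6 and 1154.1 with Control MO, 296.3 and 566.1 with ERK3 MO1/2, and 63.4 and 169.8 with TFAP2A MO1/2. Its order of groups was that of xepsin.L, and its distance of 0.40 was smaller than that of any of the candidate genes. It fell by 3.06 ± 0.56 with TFAP2A MO1/2 (limma, adjusted p = 0.0263), and its change of -1.07 ± 0.56 with ERK3 MO1/2 did not pass (limma, adjusted p = 0.278). The call ended with 16 added before log2 (adjusted p = 0.0540) and without either control or either TFAP2A array, where limma's adjusted p lay between 0.0617 and 0.134. The other neighbours of xepsin.L were LOC100037197, whose change of -0.72 with TFAP2A MO1/2 did not pass (limma, adjusted p = 0.131), and xenoxin1.L and MGC115163.L, both under the lower quartile on all arrays.

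Directly beside wfdc2.L lay twf2.L, an actin-binding twinfilin gene, with intensities of 172.1 and 213.2 with Control MO, 57.3 and 104.2 with ERK3 MO1/2, and 145.5 and 195.9 with TFAP2A MO1/2. Its ERK3 arrays lay below all others, but its log2 change of -1.31 ± 0.31 did not pass (limma, adjusted p = 0.0524). On the other side josd2.L, a deubiquitinase gene, had a log2 change of -0.78 ± 0.19 with TFAP2A MO1/2, which did not pass (limma, adjusted p = 0.0507). The next neighbours, wdr82.L and wbp11.L, passed in no comparison.

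In gene order the 3 measured astl2 genes lay together, with 7 annotated genes from astl2b.L to astl2e.2.L and astl2 in the symbol of 5 of them. Only astl2d.1.L of the 3 had intensities above the array median, and it lay directly beside astl2b.L, which was under the lower quartile on all arrays. The lysosomal ion channel gene tpcn2.L lies between astl2d.1.L and astl2e.2.L. It fell from 14.5 and 12.4 in control caps to 8.58 and 8.30 with ERK3 MO1/2 (limma, adjusted p = 0.0370). With TFAP2A MO1/2 it fell to 6.26 and 7.05 (limma, adjusted p = 0.0136), the first under the lower quartile. Its values lay below the median of every array. The cryptochrome gene cry2.L, beyond astl2b.L, fell by 0.67 ± 0.14 with TFAP2A MO1/2 (limma, adjusted p = 0.0374).

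The calls above rest on few arrays. With either control array left out, limma called 0 of all probe sets with ERK3 MO1/2, against 3443 with all arrays, while 7287 and 6539 had an unadjusted p under 0.05. Without Control MO replicate 2 it called 7 with TFAP2A MO1/2, against 3677, and no list member or neighbour named above as called in that comparison was among the 7.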

How the data were processed

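The deposited intensity values are on a linear scale and come, per the series' design text, from Expression Console, where the authors ran the robust multiarray average (RMA) after image analysis in GeneChip Operating Software 1.4. RMA brings arrays to a common distribution, so a shift shared by most transcripts would be hidden. The genome build and the version of Expression Console are not given in the sources used here. Of 32635 probe sets, 96 manufacturer controls were left out. The platform annotation named a single gene for 15495 of the tested probe sets, several genes for 279, and left 16765 unnamed. Of the probe sets with 1 symbol, 15384 matched the RefSeq gene table, which updated 2 symbols. No sequence is printed. Arrays have no read depth, and 2 per group limit the precision.

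In R 4.3.3, limma 3.58.1 (lmFit, eBayes) was run on log2 values of all 6 arrays with a mean for each group, which left 3 residual degrees of freedom beside 2.99 prior ones. The two-sided p-values of each comparison were adjusted over all 32539 probe sets (Benjamini-Hochberg), and the threshold was an adjusted p under 0.05. The fit was tested on simulated data with independent noise on each array. Those data lack the shift between replicate numbers that the groups share here, so that test does not cover it. The members and the 13 gene lists were chosen with earlier results of these data known. Named genes were all members and the 3 genes nearest in pattern to each bright gene, passing over symbols that are only locus identifiers. From the protease and inhibitor lists, up to 4 called probe sets with the smallest adjusted p per comparison with control were named. From the cell type lists only the changes of ag1.S, agr2.S, krt12.5.S and klf17.1.S are given, chosen with their values known. Neighbours in gene order and single uncalled genes were named after values were known. Alternatives were 16 added before log2, a filter on dim probe sets, quantile or median scaling, a replicate block, a fit of only the arrays compared, trend and robust moderation, and leaving out each array.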

Additional observations from a re-analysis of the deposited data

How the results depend on the processing

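With 1 array left out at a time, the count of called probe sets ranged from 0 to 2002 for ERK3 MO1/2 against Control MO, from 7 to 3000 for TFAP2A MO1/2 against Control MO and from 0 to 295 between the knockdowns. The counts with all arrays were 3443, 3677 and 1552. Over the 7 xepsin, wfdc2 and astl2 probe sets the called counts of 1, 2 and 1 ranged from 0 to 1, from 0 to 2 and from 0 to 1. Between the knockdowns limma called 0 of all probe sets without ERK3 MO1/2 replicate 1, where 5405 had an unadjusted p under 0.05. A fit of only the 4 arrays compared called 2002 probe sets for ERK3 MO1/2 against Control MO and 295 between the knockdowns, where 0 of the 7 passed and 2 had an unadjusted p under 0.05. Adding 16 before log2 left 0 of the 7 called with TFAP2A MO1/2, where 2 had an unadjusted p under 0.05, and trend and robust moderation left 1. The replicate block called 7945, 7934 and 4831 of all 32539 probe sets in the 3 comparisons. It called 2 of the 7 with ERK3 MO1/2 (wfdc2.L and astl2d.1.L, both lower). Between the knockdowns it called 3 (wfdc2.L lower, xepsin.L and astl2d.1.L higher in ERK3 knockdown caps). These genes were chosen with their changes known, so nothing is read from the calls among the 7. Replicate differences of the groups correlated at 0.54 to 0.59 over all probe sets, but the labels give the numbers no shared origin and only 2 numbers exist, so the samples are treated as sharing only a number. With 1 array left out at a time, the change of astl2e.2.L ranged from -0.0173 to 0.2809 with ERK3 MO1/2 and from -0.0893 to 0.2089 with TFAP2A MO1/2, below 0 only without Control MO replicate 1. Of 101 changes of single probe sets, no other changed sign. Over those changes, the alternatives that kept all arrays of the groups compared left 612 on their side of the threshold, ended 53 calls and added 38, and leaving out 1 array ended 270 calls and added 7. The cause of these shifts was not tested, beyond the fewer arrays of a fit that leaves some out.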
